A study of Mus musculus with 24 samples.

Results

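The net change in gene expression of the embryonic mouse head over 4 days of development was described by setting 8 arrays of E12.5 against 8 arrays of E8.5, 16 of the 24 Illumina arrays of the study. Stages are given as in the labels, by embryonic day in days post coitum (dpc). The arrays were chosen by their labelled stage alone, and each stage holds the left and the right side of 4 embryos, so that the comparison rests on 8 of 12 embryos. All embryos were (C3H/HeH x 101/H)F1 mice, and the labels name no treatment, transgene or mutation. The 8 arrays of E10.5, from 4 further embryos of this cross, entered the same fit and served to divide the net change into an early step (E10.5 versus E8.5) and a late step (E12.5 versus E10.5). The labelled tissue is brain, but heads were cut along the midline, and markers of other head tissues were measured as well. Nothing in the sources used here gives the number of litters. Where embryos shared a litter, the p-values measure the spread between the arrays of these embryos, both sides included, and not between litters.

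Between these stages the mouse neural tube passes from a sheet of dividing progenitors to a tissue in which the first neurons leave the cell cycle, move outwards and grow axons. Progenitors depend on genes of DNA replication, ribosome assembly and nucleotide synthesis. Young neurons express a largely different set, among them microtubule proteins of the growing axon, adhesion molecules, RNA-binding proteins and the first parts of the synapse. Over the same days primitive red cells of the yolk sac fill the vessels, and the lens, muscle, cartilage and skin of the head begin to form.

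Levels below are quantile normalized intensities averaged over both sides of an embryo, with a constant of 119.5, added to every value before the log2 transformation, taken off again. A log2FC is the difference of log2(intensity + 119.5) and understates the change of dim genes. Each gene was represented by its brightest probe, and a gene is said to have risen or fallen only where LIMMA, with the embryo as a random block, gave an adjusted p (Benjamini-Hochberg, 46643 probes) below 0.05. Levels of different genes are not comparable on arrays, and single genes are not compared by level here. Sums over lists are compared between embryos only, and median levels of classes of genes describe probe signal and not amounts of transcript.

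The label was checked against lists of marker genes. The summed level of 30 genes of neuronal microtubules and neurofilaments was 112265, 88449, 84988 and 91703 in the embryos of E12.5 and between 22176 and 23601 at E8.5, and that of 24 genes of neural progenitors was 27406 to 29349 at E12.5 and 13716 to 14002 at E8.5. Of these, 4 neuronal and 5 progenitor genes had a mean level under 20 at E12.5, and 10 and 5 at E8.5. The sums follow the brightest probes. The median log2FC was 1.76 in the neuronal list, where 26 of 30 genes rose and 0 fell. It was 0.12 in the progenitor list, where 11 of 24 rose and 2 fell. Markers of other tissues were present too and varied between embryos. The summed level of 18 lens genes was 424 in embryo 1 of E12.5 and 8071, 12536 and 16167 in embryos 2, 3 and 4, against 348 to 681 at E8.5. Genes of surface ectoderm and epithelium summed to 453 in that same embryo 1 and to 3613, 4056 and 3646 in the others of E12.5, against 1765 to 2526 at E8.5. Embryo 1 of E12.5 thus stood apart, with the highest sum of neuronal genes and the lowest of lens and surface genes. Embryo 2 of E8.5 had a sum of 3215 for 31 muscle genes, against 11632 to 14118 in the others of its stage. The arrays also differed in a way the stages do not account for. The first principal component, 46.5% of the variance, ran with stage, but the second, 27.4%, separated the right sides of replicates 3 and 4 (scores of −47.2 to −28.4) from the right sides of replicates 1 and 2 (20.4 to 31.9), with all left sides between them (−1.2 to 13). The mean deposited intensity of an array lay between 149.1 and 323.2 at E12.5 and between 183.4 and 301.2 at E8.5.

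Over the 4 days 2851 of 19406 genes rose (14.7%) and 2894 fell (14.9%), so that 29.6% of the genes measured were called. The numbers of genes in each direction were alike, but the sizes were not. A log2FC beyond 1 was found for 639 genes that rose and 299 that fell, a log2FC beyond 2 for 150 and 33, and a log2FC beyond 3 for 40 and 4. Of the 5745 genes called, 4931 (85.8%) had embryo levels that did not overlap between E12.5 and E8.5, and over all genes 5534 did (28.5%). The median log2FC over all genes was −0.01, and under other ways of scaling it lay between −0.04 and −0.00, with 49.3% to 51.7% of the calls higher. The right sides alone called 3090 genes and the left sides alone 5621.

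The genes that rose most were mainly genes of young neurons. In bulk RNA, fewer cells of a type and less RNA per cell cannot be told apart, here or below. *Dcx*, which encodes the microtubule-binding protein doublecortin of migrating neurons, was measured at 6486, 4351, 3844 and 3682 in the embryos of E12.5 and at −2.47, −0.137, −1.82 and 0.45 at E8.5. All 4 early embryos were at background and all 4 late ones far above it (log2FC 5.28, SE 0.15, adjusted p = 4.15e-17). *Mapt*, the microtubule-associated protein tau of axons, had 4085, 2156, 2152 and 2465 at E12.5 and 16.8, 22.8, 32.8 and 30.5 at E8.5 (log2FC 4.24, SE 0.14, adjusted p = 3.55e-16). *Cntn2*, an adhesion molecule of early axons, had 2889, 2007, 2136 and 2627 at E12.5 and 16.4 to 20.1 at E8.5 (log2FC 4.18). All 4 embryos of E8.5 were low in these 3 genes. *Nfib*, a transcription factor of the nuclear factor I family, rose by a log2FC of 4.47, with 4841, 2568, 2278 and 2473 at E12.5 and 10.6 to 17.9 at E8.5. *Rufy3*, which takes part in axon formation, rose by 4.45, *Rtn1*, a reticulon of the neuronal endoplasmic reticulum, by 4.2, and *Dner*, a transmembrane protein with EGF repeats that binds Notch, by 4.13. Embryo 1 had the highest level of the 4 embryos of E12.5 in *Dcx*, *Mapt*, *Cntn2*, *Nfib*, *Rufy3*, *Rtn1* and *Dner*. The remaining gene of these 8 was not neural: *Hbb-bs*, an adult beta globin chain, had 26003, 20835, 16508 and 21155 at E12.5 and 1475, 587, 1379 and 1248 at E8.5 (log2FC 4.10, SE 0.29).

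The genes that fell most included several known from the early embryo. *Prtg*, which encodes protogenin, an immunoglobulin superfamily receptor of early neuroepithelium and mesoderm, had 44.3, 67.1, 62.6 and 81.3 at E12.5 and 5985, 6710, 6466 and 6974 at E8.5 (log2FC −5.18, SE 0.16, adjusted p = 1.68e-16). *Etv2*, the transcription factor that specifies blood and endothelial precursors, had −0.633, 4.98, 1.66 and 6.95 at E12.5 and 1617 to 1752 at E8.5 (log2FC −3.86, SE 0.06). *Etv2* was at background in every embryo of E12.5. *Nr6a1*, an orphan nuclear receptor of the early embryo, had 51.1, 54.5, 48.4 and 48.2 at E12.5 and 2410, 2375, 1475 and 1588 at E8.5 (log2FC −3.57). *Slc2a3*, a glucose transporter, fell (log2FC −3.18), and so did *Dnmt3b*, a DNA methyltransferase that sets new marks (−2.97). *Plcg2*, a phospholipase C of blood cells (−2.83), *Arid3b*, an AT-rich interaction domain protein (−2.81), and *Sox10*, a transcription factor of the neural crest (−2.79), fell as well. *Sox10* had 11.7, 148, 232 and 214 at E12.5 and 1475, 1829, 1505 and 1763 at E8.5, with embryo 1 the lowest of its stage.

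**Figure D1:**
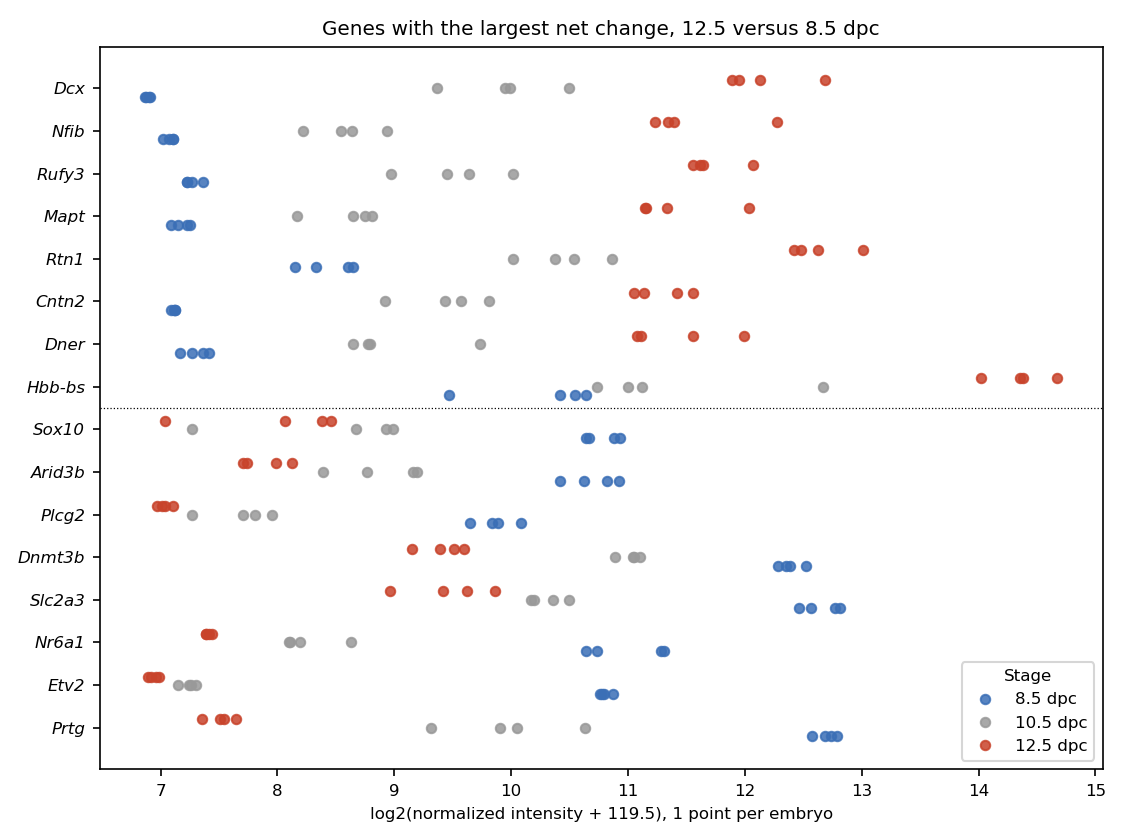
Levels of the 8 genes that rose most and the 8 that fell most between E8.5 and E12.5, with log2(normalized intensity + 119.5) on the horizontal axis, 1 row for each gene and 1 point for each embryo (4 a stage, both sides averaged; blue E8.5, grey E10.5, red E12.5). The genes run from *Dcx* with a log2FC of 5.28 at the top to *Prtg* with −5.18 at the bottom, and were chosen so that red and blue points do not overlap. Most grey points lie between them.

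The course of the net change was read from the steps. The early step called 1567 genes higher (8.07%) and 1506 lower (7.76%), the late step 1756 higher (9.05%) and 1416 lower (7.3%). Of the 5745 genes with a net call, 1058 (18.4%) were called in both steps in the same direction, 1475 (25.7%) in the early step alone, 1611 (28.0%) in the late step alone, 92 in both in opposite directions, and 1509 (26.3%) in neither step. The classes are set by whether a step passed the threshold, which ties them to the size of the net change and to how it divides between the steps. The median absolute log2FC was 1.05 for genes called in both steps, 0.45 and 0.50 for those called in the early or the late step alone and 0.26 for those called in neither. Of the 16 genes described above, 15 were called in both steps, and *Sox10* in the early step alone.

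Large changes could still be evenly spread. A gene was called even where between 33.3% and 66.7% of its net log2FC had been reached by E10.5. By this measure 826 of the 1058 genes called in both steps were even (78.1%), 877 of the 1509 called in neither (58.1%), and 2127 of all 5745 (37.0%). *Rufy3* had reached 50.4% of its net log2FC by E10.5, with steps of 2.24 and 2.21, *Rtn1* 48.0% with steps of 2.01 and 2.18, *Stmn3*, a stathmin that regulates neuronal microtubules, 50.7% with steps of 2.02 and 1.96, and *Prtg* 52.6% with steps of −2.73 and −2.46. Others were uneven though called in both steps. *Etv2* had covered 92.3% of its fall by E10.5, and *Trh*, the precursor of thyrotropin-releasing hormone, 20.4%. *Trh* had 69.5, 77, 71 and 86.6 at E12.5 and 566, 546, 601 and 624 at E8.5 (log2FC −1.84, SE 0.09), with 358 to 500 at E10.5.

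**Figure D2:**
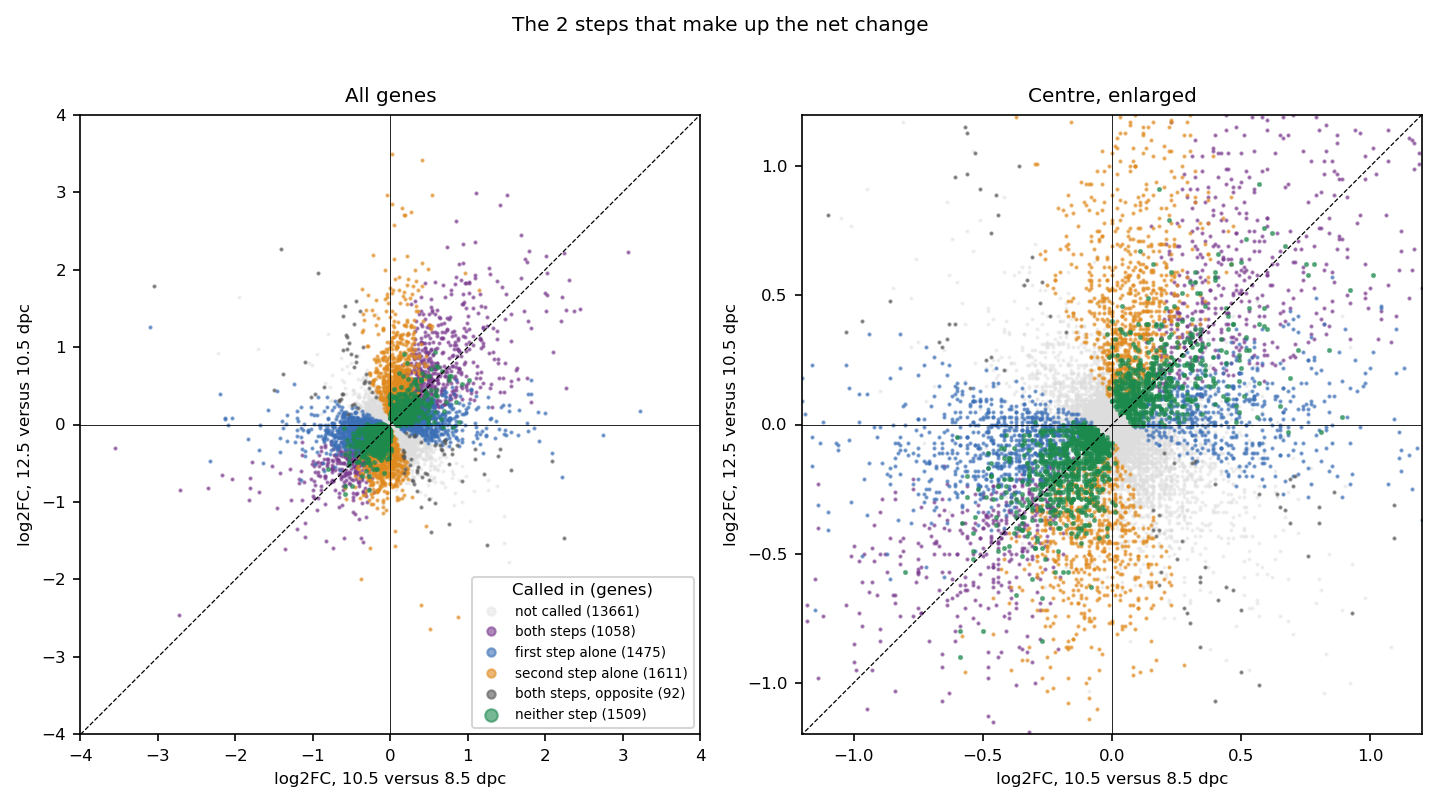
The log2FC of the early step (E10.5 versus E8.5, horizontal axis) against that of the late step (E12.5 versus E10.5, vertical axis), 1 point for each gene, coloured by the steps in which genes with a net call were called; the right panel enlarges the centre and the dashed line marks equal steps. The 1509 genes called in neither step (green) lie near 0 on both sides of the dashed line. The 1058 called in both steps (purple) lie along the same line farther out.

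The 1509 genes called over the 4 days and in neither step, here called the gradual genes, were 620 genes that rose (3.19% of all genes) and 889 that fell (4.58%). The name states only that neither step was called. In 312 of them over 66.7% of the net log2FC had been reached by E10.5, and in 320 under 33.3%. Both steps ran in the direction of the net change in 1492 of them. Their median share of the net log2FC reached by E10.5 was 49.5% (quartiles 36.5% to 63.6%). The changes were small, with quartiles of 0.15 and 0.42 of the absolute log2FC and a largest value of 1.60. Beyond a log2FC of 0.5 lay 127 that rose and 142 that fell, beyond 1 lay 18 and 8. Their median level was 62.7, against 381 for genes called in both steps. Embryo levels did not overlap between E12.5 and E8.5 in 1009 of the 1509 (66.9%), below the 85.8% of all called genes. The class is bounded by thresholds. In 423 of the 1509 a step had an adjusted p under 0.1, in 1109 a step had an unadjusted p under 0.05, in 137 both steps had, and in 400 neither had. Just inside were *Sned1*, *Hey1* and *Itpk1*, whose nearest step had adjusted p-values of 0.0501, 0.0501 and 0.0502, and just outside *Zfp358*, *Yeats2* and *Taf6*, with 0.0498, 0.0497 and 0.0497. On the side of the net call, *Relch* had an adjusted p of 0.0499 and was inside, and *Bop1*, with 0.0501, was not.

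Of the 1509 gradual genes, 1001 had embryos without overlap between E12.5 and E8.5 and both steps in the net direction. The 8 of these 1001 that rose most encode proteins of several kinds. *Trib2*, a pseudokinase, was measured at 122, 130, 72.2 and 77.6 at E8.5, at 307, 326, 157 and 170 at E10.5 and at 708, 650, 279 and 293 at E12.5. The E8.5 embryos lay below all others, and embryos 3 and 4 of E12.5 lay within the range of E10.5 (log2FC 1.36, SE 0.24, adjusted p = 0.000102), and the steps of 0.67 and 0.69 had adjusted p-values of 0.0829 and 0.0715. *Magee1*, a member of the MAGE family, had 68.4, 75.2, 15 and 11 at E8.5, 323, 384, 122 and 111 at E10.5 and 638, 689, 212 and 220 at E12.5 (log2FC 1.60, SE 0.37, adjusted p = 0.00197). In *Magee1* embryos 3 and 4 of E12.5 lay below embryos 1 and 2 of E10.5. *Stau2*, a double-stranded RNA-binding protein of neuronal RNA granules, averaged 120 ± 49.7, 367 ± 178 and 590 ± 290 (SD, n = 4) at E8.5, E10.5 and E12.5 (log2FC 1.44, SE 0.36). *Mapre2*, which binds the growing ends of microtubules, averaged 365 ± 177, 617 ± 239 and 1193 ± 547 (log2FC 1.35, SE 0.36). *Cep170*, a protein of the mature centriole, averaged 296 ± 162, 608 ± 274 and 1038 ± 441 (log2FC 1.39, SE 0.38). In *Stau2*, *Mapre2* and *Cep170* embryos 1 and 2 were the higher pair at all stages. *Zfhx3*, a zinc finger and homeodomain transcription factor of neurons, had 339, 248, 131 and 127 at E8.5, 550, 442, 273 and 290 at E10.5 and 1073, 1015, 498 and 493 at E12.5 (log2FC 1.36, SE 0.30). *Tulp4*, a tubby-like protein, had steps of 0.57 and 0.93, the late one with an adjusted p of 0.0606 (net log2FC 1.5, SE 0.31). *Tsc22d1*, a leucine zipper protein induced by TGF-beta, had 219, 370, 799 and 706 at E8.5, 634, 946, 963 and 1034 at E10.5 and 1179, 1013, 2168 and 1566 at E12.5 (log2FC 1.37, SE 0.25). Unlike the other 7, *Tsc22d1* was higher in embryos 3 and 4 than in 1 and 2 at every stage.

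Of the same 1001 gradual genes, the 8 that fell most likewise encode proteins of several kinds. *Gpatch4*, a G-patch protein of the nucleolus, had 1330, 1278, 749 and 787 at E8.5, 735, 620, 417 and 398 at E10.5 and 366, 415, 230 and 267 at E12.5. All embryos of E8.5 lay above all of the later stages (log2FC −1.37, SE 0.27, adjusted p = 0.000331; steps −0.80 and −0.57). *Nifk*, a nucleolar protein that binds the proliferation antigen Ki-67, averaged 1230 ± 428, 799 ± 240 and 516 ± 141 (SD, n = 4) at E8.5, E10.5 and E12.5 (log2FC −1.07, steps −0.54 and −0.52). *Dctpp1*, which removes abnormal dCTP from the nucleotide pool, averaged 874 ± 407, 586 ± 276 and 276 ± 120 (log2FC −1.30). *Rps24*, a protein of the small ribosomal subunit, averaged 599 ± 201, 445 ± 157 and 228 ± 84.2 (log2FC −1.03), and *Slc20a2*, a phosphate transporter, 456 ± 203, 262 ± 78.3 and 164 ± 70.5 (log2FC −0.96). *Emb*, which encodes embigin, a partner of monocarboxylate transporters, had 591, 638, 198 and 225 at E8.5, 408, 307, 107 and 92.3 at E10.5 and 49.7, 136, 28.3 and 26.8 at E12.5 (log2FC −1.39, SE 0.42, adjusted p = 0.0183). The spread within each stage was wide in *Emb*, *Rps24* and *Slc20a2*, and their net calls were lost when some single embryos were left out (embryo 3 or 4 of E12.5 and embryo 1 or 2 of E8.5 in *Emb* and *Rps24*, embryo 1 or 2 of E8.5 in *Slc20a2*), with adjusted p-values of up to 0.0792 in *Emb*, 0.0734 in *Rps24* and 0.067 in *Slc20a2*. *Plvap*, a protein of the diaphragms of endothelial cells, had 274, 279, 366 and 394 at E8.5, 198, 69.5, 243 and 272 at E10.5 and 54.7, 81.5, 134 and 127 at E12.5 (log2FC −1.03, SE 0.18, adjusted p = 8.5e-05). *Krt7*, a keratin of simple epithelia, had 907, 987, 1286 and 1221 at E8.5, 534, 584, 930 and 788 at E10.5 and 20.8, 414, 548 and 589 at E12.5 (log2FC −1.49, SE 0.31). The value of 20.8 was that of embryo 1, in which the summed level of surface genes was lowest as well.

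The spread within stages in these 16 genes followed groups of arrays. Sides and replicates fall into 4 groups, left or right sides of replicates 1 and 2 or of 3 and 4, with 2 arrays of each stage in each. In these 16 genes the means of the stages ran in order within every group, and the groups lay at different heights. The 16 were chosen for size, for embryos without overlap and for both steps in the net direction, which favours this order. Over all 1509 gradual genes the order held within every group in 626 (41.5%). The right sides of replicates 3 and 4 were the lowest group at every stage in 13 of the 16 genes and the highest at every stage in the other 3, *Krt7*, *Plvap* and *Tsc22d1*. *Trib2* had 67.3, 94.1 and 173 at E8.5, E10.5 and E12.5 in the right sides of replicates 3 and 4, and 162, 361 and 742 in the right sides of replicates 1 and 2. The same holds for *Gpatch4*, with 479, 220 and 123 in the right sides of replicates 3 and 4 and 1468, 793 and 416 in those of replicates 1 and 2. What these groups of arrays share is not given in the sources used here.

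**Figure D3:**
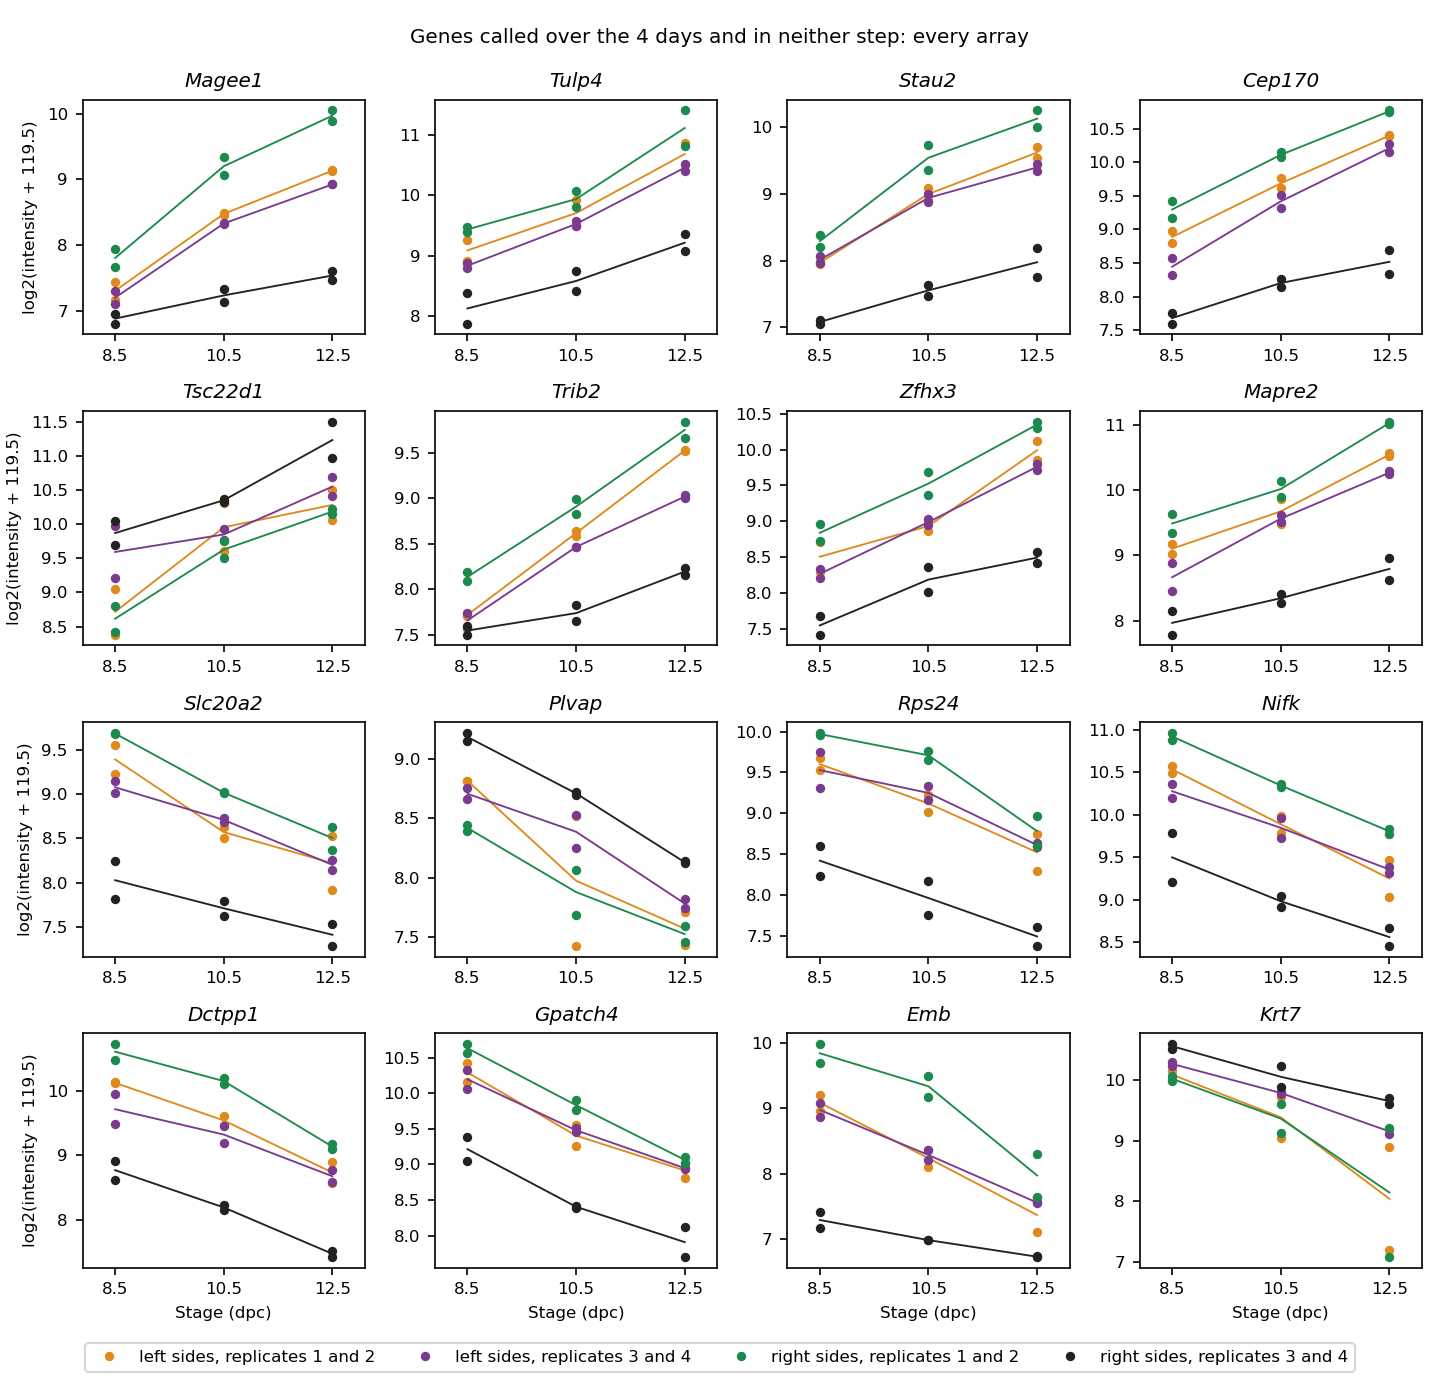
The 8 genes that rose most and the 8 that fell most of the 1001 gradual genes described above. Stage is on the horizontal axis and log2(normalized intensity + 119.5) on the vertical axis. Each point is 1 array, and each line runs through the means of 1 of the 4 groups of arrays. In every panel the 4 lines run the same way, from the rise of *Magee1* (log2FC 1.60) to the fall of *Krt7* (−1.49), and the black line of the right sides of replicates 3 and 4 is the lowest at every stage in 13 panels and the highest in 3.

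Membership of the gradual class depended on how this spread was treated. With the replicate number of the labels as a block, 742 of the 1509 genes stayed in the class and 767 gained a call in a step (305 in the early, 366 in the late, 96 in both), while no net call was lost. With the 4 groups of arrays as a block, 640 stayed, 869 gained a step and no net call was lost. Of the 16 genes above, the replicate block left 2 in the class (*Emb* and *Slc20a2*), and the array groups left 0: 15 were then called in both steps and *Krt7* in the late step alone. On the means of both sides all 16 stayed. With arrays scaled to the same median 10 stayed, 1 gained a step, and 5 of the 8 that fell lost their net call (*Nifk*, *Emb*, *Dctpp1*, *Slc20a2* and *Rps24*, with adjusted p-values of 0.0505 to 0.108). The left sides alone called 13 of them in both steps. The right sides alone, where the split between replicates was widest, called only *Tsc22d1*. The share of the variance within stages that lay between the 4 groups had a median of 46.5% in the gradual genes, 35.7% in genes called in both steps and 41.4% and 37.6% in those called in the early or the late step alone. In the class under the fit used here, under both blocks, on embryo means and under median scaling were 252 genes (16.7%), 97 that rose and 155 that fell, with a median absolute log2FC of 0.13. Leaving out single embryos kept 874 (without embryo 1 of E12.5) to 1350 of the 1509.

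**Figure D4:**
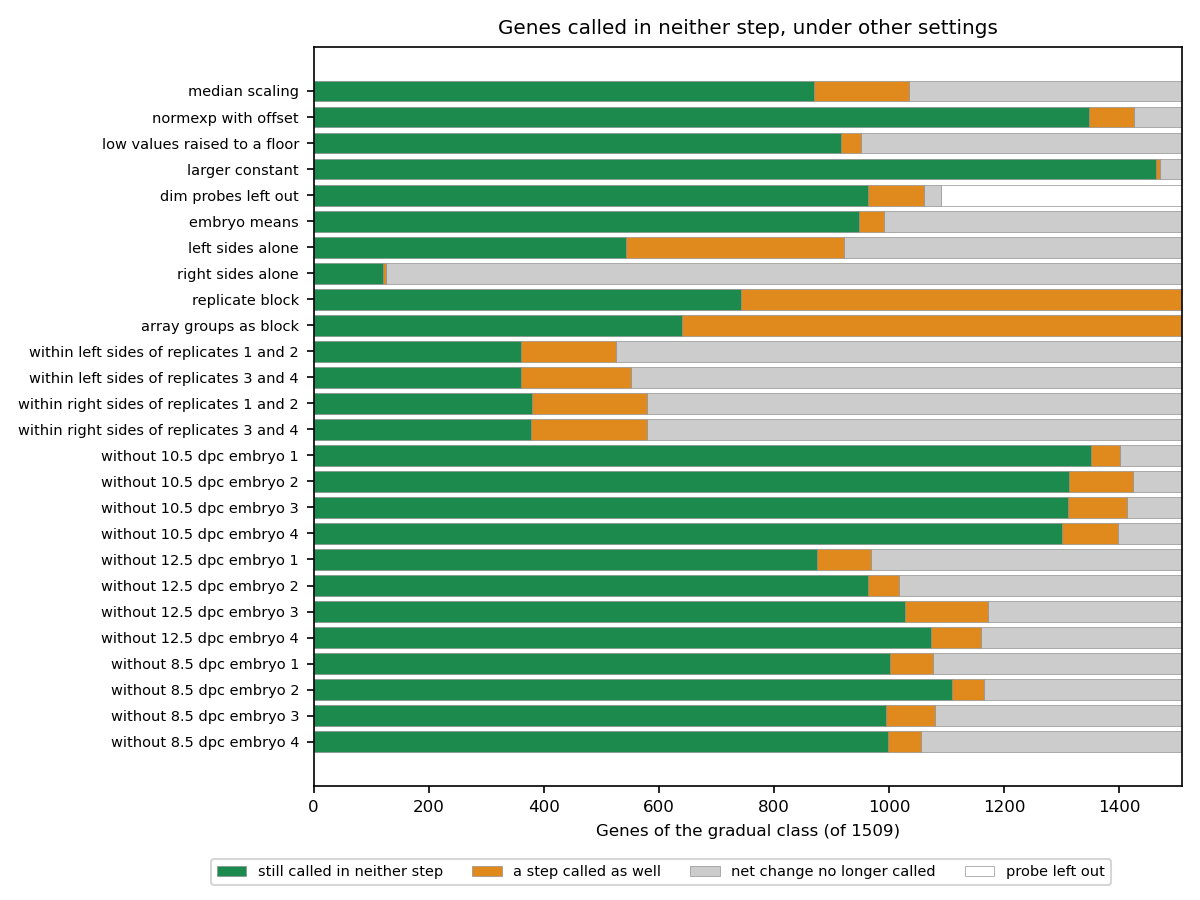
What became of the 1509 gradual genes (horizontal axis, number of genes) under each other setting (1 row each): still called in neither step (green), a step called as well (orange), net change no longer called (grey) or probe left out (white). The replicate block and the array groups as a block turn 767 and 869 genes orange and none grey, whereas the right sides alone leave 121 green and 1384 grey.

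Most genes of the neuronal lists rose. The counts of this and the following lists stand beside 14.7% of all genes that rose, 14.9% that fell and a median log2FC of −0.01. Of 30 measured genes of neuronal microtubules and neurofilaments 26 rose and 0 fell (median log2FC 1.76), and 21 were called in both steps. *Stmn2*, a stathmin of growth cones, averaged 3537 ± 290 at E12.5 and 133 ± 18.8 at E8.5 (SD, n = 4; log2FC 3.86), and *Stmn3* 3073 ± 490 and 81.7 ± 19.6. The gradual members of this list were *Gap43*, a membrane protein of growth cones, with means of 20.7, 58.2 and 167 at E8.5, E10.5 and E12.5 (log2FC 0.91), and *Kif5a*, an axonal kinesin, with 21.1, 25.3 and 32.5 (log2FC 0.11), a call lost without embryo 1, 3 or 4 of E12.5 or embryo 1 or 2 of E8.5 (adjusted p of up to 0.134).

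Genes of the synaptic vesicle and of transmitter release rose in 20 of 22 cases (0 fell, median 1.29), 8 of them in the late step alone. *Snap25*, a SNARE of release sites, averaged 1935 ± 390 at E12.5 and 38.2 ± 4.83 at E8.5 (log2FC 3.69), *Syt4*, a synaptotagmin, 1545 ± 563 and 27.4 ± 2.74 (log2FC 3.45), and *Syp*, the vesicle protein synaptophysin, 1227 ± 347 and 81.9 ± 12.2 (log2FC 2.71). *Rab3a*, a GTPase of vesicles, was the member called in neither step (log2FC 0.27, 12.8% of it by E10.5). Its call was lost without embryo 1 or 2 of E12.5 or any single embryo of E8.5 (adjusted p of up to 0.163). Of 22 transmitter receptors and ion channels 15 rose and 2 fell (median 0.36), and 11 were called in the late step alone, with 4 higher in the early step. *Gria2*, an AMPA receptor subunit, averaged 665 ± 327 at E12.5 and 22.5 ± 1.93 at E8.5 (log2FC 2.38, steps 0.21 and 2.17), and *Gria1*, another, 453 ± 252 and 13.2 ± 2.31 (log2FC 2.01). The 2 that fell, *Gabra2* and *Cacna1b*, were gradual and small (log2FC −0.13 and −0.17). Of the 2, 0 were called without embryo 2 of E12.5 or embryo 1 of E8.5, and 1 without embryo 1 or 3 of E12.5 or embryo 3 or 4 of E8.5.

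Of 28 genes of neural adhesion and axon guidance 24 rose and 0 fell (median 0.84). *Ncam1*, the neural cell adhesion molecule, averaged 3091 ± 511 at E12.5 and 205 ± 30.7 at E8.5 (log2FC 3.30), *Epha5*, an ephrin receptor, 630 ± 216 and −8.87 ± 1.73 (log2FC 2.71). *Cntn1*, an axonal contactin, with means of −4.91, 20.5 and 60.4 at E8.5, E10.5 and E12.5, and *Slit1*, a guidance ligand, with 27.3, 40.5 and 48.3, were its gradual members. Of 35 neuronal transcription factors 26 rose and 0 fell (median 1.28), 23 of them beyond a log2FC of 1. *Bcl11b* and *Bcl11a*, zinc finger factors of cortical and other neurons, rose by 3.88 and 3.53, and *Lhx9*, a LIM homeodomain factor, was gradual (0.32). Of 17 neuronal RNA-binding proteins 10 rose and 1 fell (median 0.50). *Celf4* averaged 3601 ± 1531 at E12.5 and 116 ± 36.6 at E8.5 (log2FC 3.87) and *Elavl3*, the neuronal HuC protein, 2105 ± 638 and 31.3 ± 10.7 (log2FC 3.84). *Msi1*, an RNA-binding protein of progenitors, fell by 0.33. *Elavl2*, the HuB protein, was gradual with means of 81, 246 and 439 at E8.5, E10.5 and E12.5 (log2FC 1.34, SE 0.39, adjusted p = 0.015), a call lost without embryo 1 or 2 of E12.5 or embryo 3 or 4 of E8.5.

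Of 24 genes of neural progenitors 11 rose and 2 fell (median 0.12), with 11 higher in the early step and 3 higher and 3 lower in the late step, and called members had a median of 81.6% of their net log2FC by E10.5. *Hes6*, a basic helix-loop-helix factor of committed progenitors, averaged 9878 ± 1126 at E12.5 and 2007 ± 269 at E8.5 (log2FC 2.24), *Slc1a3*, a glutamate transporter of radial glia, 1817 ± 249 and 308 ± 36.9 (log2FC 2.19), and *Vim*, the intermediate filament vimentin, 4898 ± 1231 and 1269 ± 234 (log2FC 1.81, all of it in the early step). *Gli3*, a transcription factor of hedgehog signalling, fell by 0.54, and *Hes1*, a target of Notch that keeps progenitors dividing, fell gradually by 0.65, with means of 944, 688 and 561 at E8.5, E10.5 and E12.5. Of 20 genes of the early embryo and of pluripotency 12 fell and 0 rose (median −0.65), none of them gradual. *Lin28a*, an RNA-binding protein that blocks let-7 maturation, averaged 10.7 ± 3.39 at E12.5 and 769 ± 136 at E8.5 (log2FC −2.75). Of 25 genes of DNA methylation and chromatin 5 rose and 8 fell (median −0.13), but 13 fell with the array groups as a block, and on the right sides alone 4 rose and 2 fell. *Actl6b*, a subunit of the neuronal BAF complex, rose by 2.19, *Chd3*, a remodeller of the NuRD complex, by 1.59 and *Smarcd3* by 1.60. *Hdac1*, a histone deacetylase, fell gradually by 0.78, with means of 1821, 1505 and 1040 at E8.5, E10.5 and E12.5. *Hells*, a helicase needed for DNA methylation, fell gradually by 0.61. *Ezh2*, a histone methyltransferase, was called in neither step and fell by 0.41, with 24.6% of it by E10.5. The call of *Hells* was lost without embryo 3 or 4 of E12.5 or embryo 1 of E8.5 (adjusted p of up to 0.088). That of *Ezh2* was lost without embryo 1 or 2 of E12.5, embryo 3 of E10.5 or embryo 3 or 4 of E8.5 (up to 0.181).

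Most genes of DNA replication fell. Of 40 members 28 fell and 0 rose (median −0.63), with 4 lower and 2 higher in the early step and 30 lower in the late step. None was gradual, and 1 rose without embryo 4 of E8.5 or under median scaling. *Mcm2*, a subunit of the replicative helicase, averaged 873 ± 192 at E12.5 and 2202 ± 96.2 at E8.5 (log2FC −1.25, SE 0.10), with steps of −0.23 and −1.02. *Mcm7*, of the same helicase, averaged 472 ± 194 and 1560 ± 423 (log2FC −1.53), *Mcm10* 146 ± 56.7 and 557 ± 156 (log2FC −1.34), and *Chaf1a*, a histone chaperone of new DNA, 338 ± 76.8 and 992 ± 32 (log2FC −1.30). Of 35 genes of mitosis and the cell cycle 14 fell and 7 rose (median −0.30), and 16 were lower in the late step. Under median scaling 4 rose. *Ccne1*, which encodes cyclin E, averaged 205 ± 64.7 at E12.5 and 873 ± 51.3 at E8.5 (log2FC −1.63), and *Cdc25a*, a phosphatase that activates cyclin-dependent kinases, 229 ± 68.9 and 888 ± 111 (log2FC −1.56). The inhibitors of these kinases went the other way: *Cdkn1c* averaged 21263 ± 3752 at E12.5 and 7770 ± 1281 at E8.5 (log2FC 1.44) and *Cdkn1a* 192 ± 66.9 and 18.5 ± 13.9 (log2FC 1.12).

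Promoters of replication genes are known to carry sites of E2F factors. The RefSeq windows of 250 bases before to 50 bases after the start of transcription (build GRCm38.p6) were searched on both strands for TTTCGCGC and TTTGGCGC. A match was found in 6 of the 23 replication genes that fell and had a window (26.1%), in 4 of the 10 others of that list, in 2 of 12 genes of mitosis and the cell cycle that fell (16.7%) and 1 of the other 14 (7.14%), against 211 of 15552 measured genes (1.36%). Matches were therefore present in called and uncalled replication genes alike. The element TTTGAA, searched likewise, was found in 5 of the 23 replication genes that fell (21.7%) and 0 of the 10 others, in 7 of the 12 mitotic genes that fell (58.3%), 7 of the other 14 and 2726 of the 15552 (17.5%). A match is a string of letters and not a bound site. The windows of *Mcm6* (chr1:128359656-128359955, minus strand, log2FC −1.16), *Mcm7* (chr5:138171834-138172133, minus strand) and *Cdc25a* (chr9:109875329-109875628, plus strand) are shown as examples of genes that fell, with the E2F matches in capitals. Those of *Mcm6* start at −110, −106 and −47 from the start of transcription, that of *Mcm7* at 16 and that of *Cdc25a* at −67. Another window of *Mcm7* (chr5:138171217-138171516, minus strand) held 0 matches and is not shown.
Mcm6: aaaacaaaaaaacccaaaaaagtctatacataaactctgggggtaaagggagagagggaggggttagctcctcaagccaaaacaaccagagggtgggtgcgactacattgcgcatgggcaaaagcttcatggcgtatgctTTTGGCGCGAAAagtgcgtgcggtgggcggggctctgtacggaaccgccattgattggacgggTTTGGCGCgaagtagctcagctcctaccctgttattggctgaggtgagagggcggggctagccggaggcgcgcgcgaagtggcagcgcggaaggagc
Mcm7: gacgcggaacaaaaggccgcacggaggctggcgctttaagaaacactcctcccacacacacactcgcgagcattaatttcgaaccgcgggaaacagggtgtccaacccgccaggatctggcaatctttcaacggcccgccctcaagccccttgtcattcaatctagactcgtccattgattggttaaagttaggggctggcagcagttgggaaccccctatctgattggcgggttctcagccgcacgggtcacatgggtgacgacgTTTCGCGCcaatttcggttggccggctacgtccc
Cdc25a: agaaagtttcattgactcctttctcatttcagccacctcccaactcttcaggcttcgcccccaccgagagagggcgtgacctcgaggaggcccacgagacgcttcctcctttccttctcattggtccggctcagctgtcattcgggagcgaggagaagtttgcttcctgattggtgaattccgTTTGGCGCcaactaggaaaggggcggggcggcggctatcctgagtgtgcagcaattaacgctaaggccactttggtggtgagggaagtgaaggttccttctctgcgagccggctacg

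Most genes that build ribosomes fell. Of 25 genes of ribosome biogenesis 16 fell and 0 rose (median −0.96), 11 of them in both steps and none gradually. *Rrp1b*, a nucleolar protein, averaged 833 ± 200 at E12.5 and 3283 ± 486 at E8.5 (log2FC −1.87), *Polr1a* and *Polr1b*, the large subunits of RNA polymerase I, fell by 1.56 and 1.51, with steps of −0.82 and −0.74 in *Polr1a*, and *Ncl*, nucleolin, fell by 1.34. Of 45 cytosolic ribosomal proteins 7 fell, a share close to the 14.9% of all genes, and 0 rose (median −0.19), with 13 lower under the replicate block and 29 with the array groups as a block. *Rps19* averaged 69.1 ± 30.4 at E12.5 and 300 ± 90.4 at E8.5 (log2FC −1.13), *Rpl22* fell by 0.32, and *Rps24*, *Rpl3*, *Rpl6* and *Rpl14* were gradual. *Rpl3* had means of 22810, 20945 and 19665 at E8.5, E10.5 and E12.5 (log2FC −0.21). The call of *Rpl6* was lost without any single embryo of E12.5 or E8.5 other than embryo 2 of E12.5 and embryo 4 of E8.5, with an adjusted p of up to 0.162 without embryo 2 of E8.5. Of 56 mitochondrial ribosomal proteins 24 fell and 2 rose (median −0.28), 17 lower in the late step, and 0 rose under median scaling. *Mrps18b* fell by 1.22, *Mrpl12* gradually by 0.74, and *Mrps33* rose by 0.53.

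Gradual falls made up 7 of the 13 calls among aminoacyl-tRNA synthetases and 6 of the 12 among chaperones, but 3 of the 19 among translation factors. Of 18 aminoacyl-tRNA synthetases, which load tRNAs with amino acids, 13 fell and 0 rose (median −0.45). *Vars*, for valine, averaged 546 ± 99.3 at E12.5 and 2410 ± 466 at E8.5 (log2FC −1.92), and *Mars1* and *Rars*, for methionine and arginine, fell by 0.89 and 0.83. The gradual members were 7, *Aars*, *Farsa*, *Gars*, *Iars*, *Qars*, *Tars* and *Wars* (53.8% of those called, against 26.3% over all called genes), with log2FC between −0.54 and −0.17. Of these, *Gars* had reached 78.2% of its net log2FC by E10.5. *Qars* had means of 3201, 2634 and 2172 at E8.5, E10.5 and E12.5 (log2FC −0.54, SE 0.10, adjusted p = 0.000135), with steps of −0.28 and −0.27, and *Farsa* 974, 774 and 646 (log2FC −0.51). Under either block 3 of the 7 remained gradual, and with the array groups as a block 1 of the list rose. The call of *Aars* was lost without embryo 3 or 4 of E12.5 or embryo 1 or 2 of E8.5 (adjusted p of up to 0.0729), that of *Tars* without embryo 1 or 2 of E12.5 or embryo 2 or 4 of E8.5 (up to 0.151) and that of *Gars* without embryo 3 of E8.5 (0.0884).

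Of 30 factors of translation initiation and elongation 16 fell and 3 rose (median −0.45). *Eif4ebp1*, an inhibitor of cap binding, averaged 796 ± 248 at E12.5 and 4516 ± 868 at E8.5 (log2FC −2.37), *Eif3b* fell by 1.21, and *Eef1a2*, the elongation factor of neurons and muscle, rose by 2.89, with 885 ± 435 and 7.26 ± 2.15. *Eif3d*, *Eef1b2* and *Eef1g* were called in neither step (−0.50, −0.53 and −0.16), with 64.3%, 23.2% and 50.2% of the net log2FC by E10.5. The call of *Eef1b2* was lost without embryo 1 or 2 of E12.5 or embryo 3 or 4 of E8.5 (adjusted p of up to 0.103). Of 27 chaperones 12 fell and 0 rose (median −0.33), 6 of them gradually, of which 1 remained gradual under either block. *Hspd1*, the mitochondrial chaperonin, averaged 582 ± 101 at E12.5 and 1542 ± 575 at E8.5 (log2FC −1.15). *Hsph1*, a partner of heat shock protein 70, was gradual with means of 2714, 1837 and 1543 at E8.5, E10.5 and E12.5 (log2FC −0.77), and *Hsp90aa1*, a heat shock protein 90, with 189, 96 and 55.3 (log2FC −0.77). Of 31 proteasome genes 7 fell and 0 rose (median −0.08), *Psmc4*, an ATPase of the cap, by 0.52 and *Psmb1*, a subunit of the core, gradually by 0.56. Under either block 1 rose, and with the array groups as a block 11 fell.

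Of 35 genes of the nuclear pore and nuclear transport 24 fell and 0 rose (median −0.56). *Seh1l*, a nucleoporin, averaged 239 ± 41.4 at E12.5 and 867 ± 42.6 at E8.5 (log2FC −1.47), *Rcc1*, the exchange factor of Ran, 356 ± 15.3 and 1112 ± 168 (log2FC −1.37), and *Ipo5*, an importin, 1377 ± 121 and 3729 ± 312 (log2FC −1.36). Of 44 core splicing factors 22 fell and 1 rose (median −0.32), 6 of them gradually, and 2 rose under either block, without embryo 4 of E12.5 or without embryo 3 of E8.5. *Ptbp1*, the splicing repressor that progenitors express in place of its neuronal paralogue, averaged 3283 ± 646 at E12.5 and 7346 ± 600 at E8.5 (log2FC −1.15), and *Sf3b3* fell by 0.82. *Srsf2* was called in neither step, with means of 10388, 9772 and 7910 at E8.5, E10.5 and E12.5 (log2FC −0.39, 22.3% of it by E10.5).

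**Figure D5:**
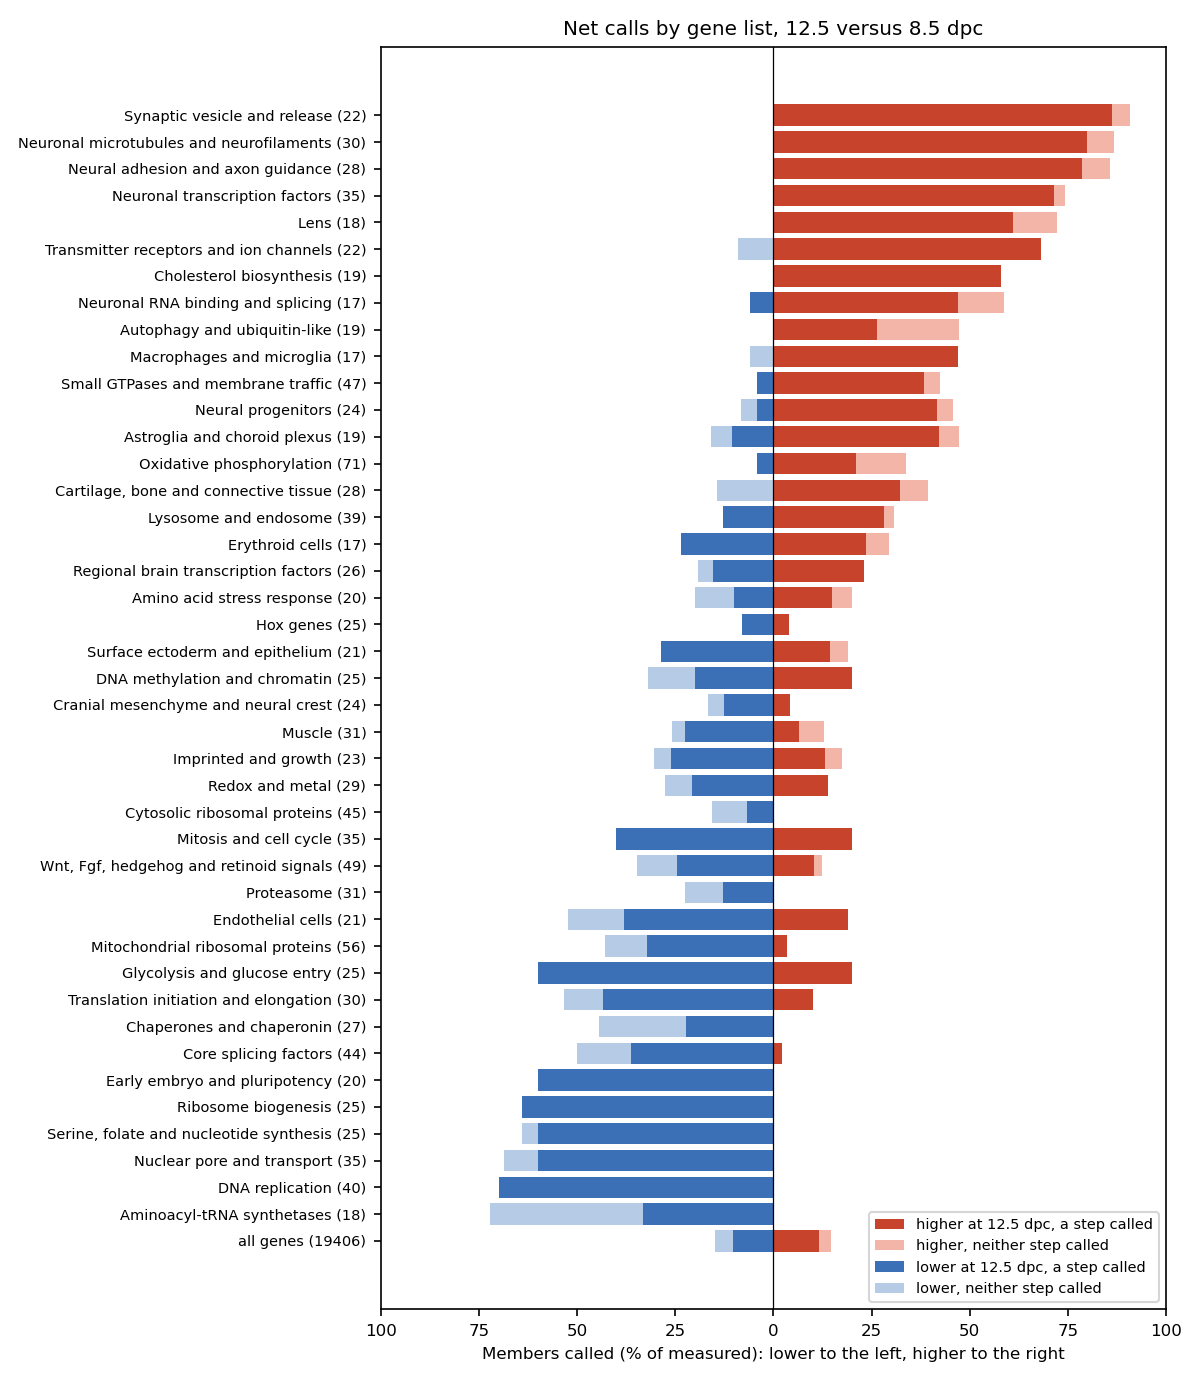
Percentage of the measured members of each gene list (number in brackets) that rose (red, to the right) or fell (blue, to the left) between E8.5 and E12.5, with members called in neither step in the pale shades and all genes in the bottom row. Lists of neurons lie at the top (20 of 22 synaptic genes rose), those of translation, replication and nuclear transport at the bottom (13 of 18 aminoacyl-tRNA synthetases fell, 7 of them in neither step), and all genes show 14.7% and 14.9%.

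Genes of glycolysis mostly fell, whereas called genes of oxidative phosphorylation mostly rose, a direction that turned under median scaling. Of 25 genes of glycolysis and glucose entry 15 fell and 5 rose (median −0.55), none gradually. *Aldoa*, an aldolase, averaged 1167 ± 115 at E12.5 and 6065 ± 1011 at E8.5 (log2FC −2.26), *Pfkl*, a phosphofructokinase, 2398 ± 279 and 10223 ± 453 (log2FC −2.04), and *Eno3*, an enolase, fell by 2.32. *Ldhb*, a lactate dehydrogenase subunit, rose by 1.38 and *Eno2*, the enolase of neurons, by 1.17. Of 71 genes of oxidative phosphorylation 24 rose and 3 fell (median 0.13), with 15 higher in the early step and 2 in the late step, and 9 of the 24 were gradual. *Atp5l*, a subunit of ATP synthase, averaged 8811 ± 457 at E12.5 and 4054 ± 458 at E8.5 (log2FC 1.10), and *Ndufa12*, of complex I, rose by 0.84. *Cox6b1*, of complex IV, was gradual with means of 8937, 10328 and 11333 at E8.5, E10.5 and E12.5 (log2FC 0.34), and the 9 gradual members lay between 0.15 and 0.40. *Atp5a1*, the alpha subunit of ATP synthase, fell by 0.91. This list depended on the scaling: with arrays scaled to the same median 5 rose and 6 fell, with the array groups as a block 5 fell, and without embryo 4 of E12.5 15 rose.

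Of 19 genes of cholesterol synthesis 11 rose and 0 fell (median 0.39), with 14 higher in the early step and 2 in the late step. *Hmgcs1*, which makes hydroxymethylglutaryl-CoA, averaged 15270 ± 952 at E12.5 and 5202 ± 460 at E8.5 (log2FC 1.53, early step 1.31), and *Sqle*, squalene epoxidase, rose by 0.79 (early step 0.85). Of 25 genes of serine, folate and nucleotide synthesis 16 fell and 0 rose (median −0.69), and 1 rose under either block. *Mthfd1l*, of mitochondrial folate metabolism, averaged 102 ± 34.2 at E12.5 and 562 ± 133 at E8.5 (log2FC −1.60), *Cad*, of pyrimidine synthesis, 66.7 ± 8.97 and 355 ± 17 (log2FC −1.35), and *Gart*, of purine synthesis, fell by 1.26. *Ppat*, which opens purine synthesis, was gradual with means of 100, 44.5 and 11.7 at E8.5, E10.5 and E12.5. Of 20 genes of the amino acid stress response 4 rose and 4 fell (median −0.03). *Slc7a3*, a transporter of cationic amino acids, fell by 1.21, and *Ddit3*, a stress-induced transcription factor, rose by 0.70. Without embryo 4 of E8.5 2 were called in each direction, and without embryo 1 of E8.5 or under median scaling 2 rose.

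Many genes of membrane traffic rose. Of 47 small GTPases and traffic genes 20 rose and 2 fell (median 0.24). *Rab6b*, a Golgi GTPase of neurons, averaged 1767 ± 295 at E12.5 and 81.2 ± 16.4 at E8.5 (log2FC 3.23), *Rab33a*, of axonal vesicles, 1085 ± 160 and 73.2 ± 13 (log2FC 2.64), and *Arf6*, of the plasma membrane, fell by 0.81. *Arf5*, another Arf GTPase, was called in neither step, with means of 165, 290 and 299 at E8.5, E10.5 and E12.5 (log2FC 0.55). It had reached 90.3% of its net log2FC by E10.5. Its call was lost without embryo 1 or 2 of E12.5 or embryo 1 of E8.5 (adjusted p of up to 0.0626). Of this list 4 fell under the replicate block, 6 with the array groups as a block and 4 without embryo 3 of E12.5. Of 39 genes of lysosomes and endosomes 12 rose and 5 fell (median 0.18), with 20 higher when the array groups were a block and 3 lower under median scaling. *Atp6v1g2*, a subunit of the vesicular proton pump of neurons, rose by 1.42 and *Psap*, the precursor of saposins, by 1.02, while *Ctsz*, a cathepsin, fell by 0.75. *Gm2a*, an activator of ganglioside breakdown, was gradual with means of 194, 269 and 374 at E8.5, E10.5 and E12.5 (log2FC 0.65). Of 19 genes of autophagy and ubiquitin-like proteins 9 rose and 0 fell (median 0.26), while 2 fell under either block, 1 fell under median scaling and without embryo 3 of E10.5 or embryo 2 of E8.5, and 14 rose with the array groups as a block. *Uchl1*, a ubiquitin hydrolase of neurons, averaged 4049 ± 828 at E12.5 and 629 ± 178 at E8.5 (log2FC 2.48), *Map1lc3a*, of the autophagosome, rose by 1.38, and *Ulk1* and *Ulk2*, the kinases that start autophagy, rose gradually by 0.49 and 0.71.

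Of 29 genes of redox and metal metabolism 4 rose and 8 fell (median −0.05), and 7 rose with the array groups as a block. *Gpx3*, a glutathione peroxidase, fell by 1.75 and *Tfrc*, the transferrin receptor, by 0.93, while *Mt3*, a metallothionein of the brain, rose by 1.66 and *Selenow*, a selenoprotein, by 1.07. *Gsta4*, a glutathione transferase, was gradual with means of 3692, 2879 and 2194 at E8.5, E10.5 and E12.5 (log2FC −0.77). Of 23 imprinted and growth genes 4 rose and 7 fell (median −0.04). *Nnat*, neuronatin, averaged 5452 ± 948 at E12.5 and 662 ± 160 at E8.5 (log2FC 2.84), and *Phlda2*, a growth inhibitor of placenta, 42.2 ± 30.6 and 566 ± 152 (log2FC −2.07). The number that rose was 2 under median scaling and without embryo 1 or 2 of E12.5 or embryo 3 or 4 of E8.5.

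Patterning genes were called in both directions, with 3 of 25 *Hox* genes called, against 29.6% of all genes. Of 49 genes of Wnt, Fgf, hedgehog and retinoid signalling 6 rose and 17 fell (median −0.10), with 17 lower in the late step, and 10 rose under the replicate block. *Crabp1*, a retinoic acid-binding protein, averaged 318 ± 164 at E12.5 and 2013 ± 302 at E8.5 (log2FC −2.37), *Fgf8*, a signal of organising centres, −1.64 ± 9.7 and 144 ± 34.5 (log2FC −1.16), and *Cyp26b1*, which breaks down retinoic acid, 2163 ± 607 and 605 ± 263 (log2FC 1.69). *Dkk3*, a secreted protein related to Wnt inhibitors, rose gradually, with means of 85.6, 173 and 357 at E8.5, E10.5 and E12.5 (log2FC 1.13). *Axin2*, a target of Wnt signalling, and *Smo*, the transducer of hedgehog signals, fell gradually, by 0.41 and 0.50. Of 26 regional brain transcription factors 6 rose and 5 fell (median −0.01). The larger count turned under both blocks, with 6 higher and 7 lower under the replicate block and 7 and 8 with the array groups, and 3 fell without embryo 1 of E12.5. *En1*, of the midbrain and hindbrain border, averaged 644 ± 76.5 at E12.5 and 1833 ± 257 at E8.5 (log2FC −1.39). *Gbx2* rose by 0.85 over the 4 days through steps of −1.41 and 2.26, but a dimmer probe of it fell by 0.75. Of 25 *Hox* genes 1 rose and 2 fell (median 0.00), *Hoxb1* by 0.70 and *Hoxb2* by 1.21. *Hoxa5*, which rose, averaged 204 ± 283 at E12.5 and −0.82 ± 5.31 at E8.5 with overlap of the embryos, a call lost without embryo 2 or 3 of E12.5 or embryo 2 of E8.5 (adjusted p of up to 0.0759). Under the replicate block 3 rose and 4 fell, and 4 fell with the array groups as a block. When single embryos were left out, 0 rose without embryo 2 of E12.5 or of E8.5, 5 without embryo 1 and 4 without embryo 4 of E12.5, and 2 without embryo 4 of E8.5.

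Genes of other head tissues changed as well. Of 19 genes of astroglia and choroid plexus 9 rose and 3 fell (median 0.18). *Ttr*, transthyretin of the choroid plexus, averaged 1874 ± 1481 at E12.5 and −2.24 ± 9.2 at E8.5 (log2FC 3.5, SE 0.47), and *Apoe*, apolipoprotein E, fell by 0.97. Of 17 erythroid genes 5 rose and 4 fell (median 0.01), 2 falling without embryo 1 of E12.5, and the summed level of the list was 67794 to 85333 at E12.5 and 17254 to 63939 at E8.5. *Hba-a1*, an adult alpha globin, averaged 28716 ± 2386 at E12.5 and 8278 ± 5366 at E8.5 (log2FC 2.06), *Hbb-y*, an embryonic beta globin, 5027 ± 992 and 801 ± 383 (log2FC 2.60), and *Hbb-bh1*, another embryonic one, 5002 ± 3046 and 14033 ± 6030 (log2FC −1.62), with overlap of the embryos in *Hbb-bh1*. Globin genes have near-identical copies, which a probe may not separate. *Uros*, an enzyme of haem synthesis, was gradual (0.65). Of 21 endothelial genes 11 fell and 4 rose (median −0.38), with 8 lower in the early step and 7 lower over the 4 days under median scaling. *Slc2a1*, a glucose transporter, fell by 1.73 and *Egfl7*, a secreted endothelial protein, by 1.45, while *Mfsd2a*, a lipid transporter of the blood-brain barrier, averaged 1048 ± 73 at E12.5 and 239 ± 36 at E8.5 (log2FC 1.71). *Flt1*, a receptor of VEGF, and *Cdh5*, a cadherin of endothelial junctions, were called in neither step, as *Plvap* was. They fell by 0.76 and 0.55, with 73.4% and 76.8% of it by E10.5. The call of *Cdh5* was lost without embryo 1 or 2 of E12.5 or embryo 3 or 4 of E8.5 (adjusted p of up to 0.091). Of 17 genes of macrophages and microglia 8 rose and 1 fell (median 0.11), and 9 were higher in the early step, with *Mrc1*, a mannose receptor, at 127 ± 34.3 at E12.5 and 3.74 ± 5 at E8.5 (log2FC 0.99).

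The summed levels of the remaining lists differed between embryos of a stage as well, and their part in the other results was not tested. Of 18 lens genes 13 rose and 0 fell (median 0.67), and 11 were higher in the late step. *Cryba2*, a lens crystallin, had 15.8, 2020, 2586 and 3599 at E12.5 and −13.4 to 0.335 at E8.5 (log2FC 3.51, SE 0.58, adjusted p = 4.61e-05), and *Crybb1*, another, 19.2, 1002, 2181 and 2461 at E12.5 and 5.27 to 18.1 at E8.5 (log2FC 2.87). In both, embryo 1 of E12.5 was close to the embryos of E8.5. Of 28 genes of cartilage, bone and connective tissue 11 rose and 4 fell (median 0.02), 6 of them gradually, and 2 fell without embryo 1 of E12.5 or embryo 4 of E8.5. *Dcn*, decorin, averaged 564 ± 90.7 at E12.5 and 56.7 ± 18.9 at E8.5 (log2FC 1.94, late step 1.88), and *Fbln1*, fibulin 1, fell gradually by 0.62. Of 24 genes of cranial mesenchyme and neural crest 1 rose and 4 fell (median −0.04), *Tfap2b*, a transcription factor of the crest, rising by 0.79. Their summed level was 2076 to 6354 at E12.5 and 5021 to 5992 at E8.5. Under either block 3 rose, without embryo 1 of E12.5 5 rose and 2 fell, and without embryo 2 or 4 of E8.5 2 fell. Of 31 muscle genes 4 rose and 8 fell (median −0.13), and 13 fell without embryo 2 of E8.5. *Myh7*, a slow myosin heavy chain, had 604, 342, 530 and 394 at E12.5 and 1974, 388, 1929 and 1930 at E8.5 (log2FC −1.26, SE 0.31), with 27.5 to 77.4 at E10.5, so that its net fall was made of steps of −3.05 and 1.79, and embryo 2 of E8.5 lay within the range of E12.5. *Myh8*, a perinatal myosin, rose by 0.82. Of 21 genes of surface ectoderm and epithelium 4 rose and 6 fell (median 0.01), and 7 rose without embryo 1 of E12.5. *Krt8* and *Krt18*, keratins of simple epithelia, fell by 1.88 and 1.74, and *Krt14*, of stratified skin, averaged 1698 ± 1144 at E12.5 and 27.2 ± 11.1 at E8.5, with overlap of the embryos (log2FC 2.92, SE 0.58).

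All 10 genes that the study examined by qRT-PCR were called over the 4 days on the arrays, 4 higher and 6 lower, and none was gradual. The study reports matching courses in its arrays and its qRT-PCR for most of them, but not for *Crybb1* and *Myh7*. In its qRT-PCR *Crybb1* rose in the early step already, and *Myh7* fell in the early step and then returned to its starting level. The *Myh7* probe read here also fell in the early step and rose in the late one, but its net fall had no counterpart in qRT-PCR. The study describes a *Myh7* probe whose course was close to its qRT-PCR and another that was lower and similar at every stage. It considers differing probe efficiency most likely and does not exclude splice isoforms. Calls on the arrays therefore do not show a qRT-PCR match for all of these 10 genes. The study chose them on these arrays, so their calls are not independent evidence. *Dcx*, *Cryba2*, *Crybb1*, *Nr6a1*, *Slc2a3*, *Trh* and *Myh7* are described above. *Myt1*, a zinc finger factor of neuronal precursors, had 2108, 1973, 1691 and 2072 at E12.5 and 8.75 to 20 at E8.5 (log2FC 3.95, SE 0.13). *Igdcc3*, an immunoglobulin superfamily protein of the early neural tube, had 605, 573, 736 and 903 at E12.5 and 3396, 2981, 3120 and 4415 at E8.5 (log2FC −2.13), but 3822 to 6132 at E10.5, so all of its fall lay in the late step. *Myl3*, a myosin light chain of slow muscle and ventricle, had −7.78, 1.83, 5.85 and −1.7 at E12.5 and 934, 37.9, 381 and 514 at E8.5 (log2FC −1.96), with the fall in the early step.

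The net change was also compared between the sides. In a fit with stage by side terms 0 of 46643 probes had a net log2FC that differed between the right and the left side at an adjusted p under 0.05, and the lowest adjusted p was 0.396. Unadjusted p-values under 0.05 were found for 1245 probes (2.67%), fewer than chance alone would give at that threshold, and no other tool was run. The fit held no term for the 4 groups of arrays, which differed most among the right sides. The 0 therefore does not show that the sides changed alike.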

How the data were processed

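Heads of (C3H/HeH x 101/H)F1 embryos were cut along the midline, and total RNA of each side (RNeasy) was amplified (TotalPrep-96) and hybridised to 1 array. The authors deposited linear intensity values of each probe, background-subtracted and without quantile normalisation. The software is BeadStudio in the study's methods and GenomeStudio in the submitters' processing notes. Between 37.63% and 45.21% of the values of an array were at or below 0, so the precision of dim probes is limited, and the 24 arrays limit that of all others. A further table of 72 per-array columns was not used, because its columns name array positions only.

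A constant of 119.5 lifted the lowest value (−103.5) to 16, after which arrays were quantile normalised and log2 transformed. LIMMA (limma 3.58.1, statmod 1.5.0, R 4.3.3) took all 24 arrays, with terms for stage and for side and a random block for the embryo. The correlation of 0.08935 between sides of an embryo is shared by all probes, so that the SE is too small for genes whose sides vary together more. P-values were adjusted by Benjamini-Hochberg over 46643 probes. The script was tested on simulated data. Tables and plots used Python 3.11.15, numpy 2.4.6, pandas 2.3.3 and matplotlib 3.10.9.

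Of the probes, 32794 had 1 gene symbol, 55 several and 13794 none in the platform annotation. Of these 32722 were matched to RefSeq identifiers and 0 symbols changed. A gene with several probes (8202 of 19406) was read from the brightest.

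Genes were named by rule: the 8 risen and the 8 fallen furthest without overlap of embryos, and likewise for the gradual class. In the gradual class both steps also had to run in the net direction. Added were up to 4 called members of each of 43 lists with the largest change and up to 2 in the opposite direction. The 10 qRT-PCR genes were added as well. *Stmn3* beside its share by E10.5, *Trh* and *Etv2* as uneven examples, and the gradual members of lists outside this rule were chosen after their values were seen. The members and lists were chosen with earlier results of these data known.

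The replicate numbers were checked for pairing. Deviations from the stage means correlated between same-numbered embryos of different stages (r of 0.302 to 0.699, n = 12 pairs), which pairs them by the rule used, but likewise between numbers 1 and 2 or 3 and 4 (0.34 to 0.752, n = 12) and negatively across these pairs (−0.717 to −0.329, n = 24). The fit with the replicate number as a block is given as an alternative. Other alternatives were median scaling, normexp, a floor of 16, a larger constant, a filter on dim probes (mean under 20), embryo means, each side alone, the 16 arrays alone, the 4 array groups as a block or alone, limma's B over 2, each embryo left out, and the mean of all probes of a symbol.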

Additional observations from a re-analysis of the deposited data

Results flagged for a closer look

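Of 410 groups of 4 embryos, 205 genes at E12.5 and E8.5, 24 (5.85%) held an embryo whose gap to the nearest of the others exceeded Dixon's critical value for groups of this size, as a share of the range. Chance flags about 1 in 20 groups. Of the 24, 18 lay at E12.5, 14 of them in embryo 1, and 6 at E8.5.

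Embryo 1 of E12.5 was high in 10 genes. It had 4841 in *Nfib*, against 2278 to 2568 in the others of its stage, and 4188 in *Rufy3*, against 2891 to 3069. In *Mapt* it had 4085, against 2152 to 2465, and in *Bcl11b* 2700, against 1484 to 1690. The genes of release were high in it too, with 2517 in *Snap25* (others 1706 to 1787), 1375 in *Syt1* (757 to 815) and 2384 in *Syt4* (1219 to 1354). Its AMPA receptor genes had 828 in *Gria1* (others 290 to 362) and 1155 in *Gria2* (480 to 520), and *Actl6b* had 748 (362 to 427). The same embryo was low in 4 genes. It had 776 in *Polr1a* (others 1017 to 1063), 2316 in *Ptbp1* (3563 to 3666), 30 in *Rpl14* (33.8 to 34.5) and −6.61 in *Krt14* (2156 to 2454). Its lens and surface genes were the lowest of its stage as well. What part of the head it held was not tested.

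Embryo 2 of E12.5 had 153 in *Mthfd1l* (others 80.3 to 87.4) and 2811 in *Uchl1* (4373 to 4533). Embryo 3 of that stage had 1049 in *Myl4*, a myosin light chain of embryonic muscle (62.1 to 218), and embryo 4 had 900 in *Mars1* (753 to 771).

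Embryo 2 of E8.5 was low in muscle genes, with 388 in *Myh7* (others 1929 to 1974) and 72 in *Tnnt2*, cardiac troponin T (827 to 905), and had 341 in *Phlda2* (622 to 677) and 19.6 in *Gria2* (23.3 to 23.7). Embryo 4 of E8.5 had 4001 in *Rrp1b* (2927 to 3103), and embryo 1 had 8239 in *Ptbp1* (6983 to 7151).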

How the results depend on the processing

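The 5745 net calls numbered 3090 on the right sides alone (1704 higher and 1386 lower), 5621 on the left sides alone and 2964 at a limma B over 2. Calls beyond a log2FC of 1, 938 in all, were 1579 with normexp and 2344 with low values raised to a floor, both of which enlarge the changes of dim genes. Of the 1509 gradual genes 620 rose, and 404 rose with dim probes left out, where fewer genes were tested. The class held 891 genes at a B over 2 in the net comparison and in neither step, and 400 where a step counted at an unadjusted p under 0.05. Leaving out each embryo gave 5197 to 5719 net calls (2633 to 2843 higher, 2476 to 2903 lower), 857 to 996 beyond a log2FC of 1, and 1256 to 1859 gradual genes (507 to 782 higher, 717 to 1077 lower). With the replicate number as a block there were 7040 net calls (3336 higher, 3704 lower) and 1541 gradual genes (563 higher, 978 lower), and no one of the 205 genes below lost its net call under the block. Counts of list members in 1 direction moved by over 1.5 times in 10 of 86 cases under the replicate block, 16 with the array groups as a block, 10 with median scaling and 36 on the right sides alone. Within single groups of arrays the larger count of a list also turned among imprinted, muscle, surface and neural crest genes. With the array groups as a block there were 7580 and 1285, and with median scaling 5055 and 1800. Of 205 genes examined under 27 settings, 84 lost their net call in some setting, 30 of them in a setting other than the right sides or a single group of arrays alone, and 21 when an embryo was left out. *Rab3a* turned to a log2FC of −0.05 within the right sides of replicates 3 and 4. Other causes of these differences were not tested. The log2FC of genes near background are understated by the constant.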
